A study of Mus musculus with 24 samples.

Results

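RNA levels in RAW 264.7 cells that had received lipopolysaccharide (LPS) for 6 h were compared with those in mock-treated cells of the same line, over 22206 gene features of the Clariom S mouse array. The arrays were taken by their titles, LPS 1, 2 and 3 against Control 1, 2 and 3, and are 6 of the 24 arrays of the series. RAW 264.7 is a transformed, dividing mouse macrophage line and was kept at a low passage number. LPS is a glycolipid from the outer membrane of Gram-negative bacteria and was added at 500 ng/mL. Control cells were mock treated for the same time, and neither group received proanthocyanidin (PAC), the plant polyphenol that the study was designed around. In the other 6 groups a grape PAC fraction, whose degree of polymerization was low, medium or high, was given at 15 µg/mL for 30 min ahead of LPS or the mock treatment. Among these, cells given low PAC with and without LPS are used below as a further comparison of LPS with mock treatment. Each group has 3 arrays, and the sources call the samples triplicates without stating whether they came from separate cultures, so the p-values measure the spread between these samples, which may be technical.

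Macrophages detect LPS through Toll-like receptor 4, which acts with CD14 and MD-2 on the cell surface and in endosomes. The receptor signals through the adaptors MyD88 and TRIF to NF-κB, AP-1 and interferon regulatory factors, and type I interferon made by the cells then acts back on them through STAT factors. Besides secreting cytokines, macrophages stimulated in this way are known to exchange their surface receptors, to rebuild the use of glucose, arginine and lipids, and to slow their division. The sections that follow describe receptors, transporters, metabolic enzymes and repressed genes.

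The 6 arrays were of similar quality. Gene medians lay between 4.86 and 5.03 on the deposited log2 scale, and replicates correlated at 0.994 among control arrays and at 0.992 to 0.993 among LPS arrays, against 0.94 to 0.943 between the groups. Olfactory and vomeronasal receptor genes, which macrophages are assumed not to use, served to set a silent level of 4.73, the 95th percentile of their means. Negative control features had array medians of 4.86 to 5.12, so values close to that level cannot be told from background. Of the 14 measured macrophage markers, 1 lay below the silent level in both groups, the engulfment receptor Mertk. With LPS 6 of the 14 were called higher and 5 lower, with differences from -3.02 to 3.81, and 3 were not called. Spi1, which encodes the lineage factor PU.1, read 17.72, 17.90 and 17.86 on the control arrays and 17.77, 17.81 and 17.75 on the LPS arrays and did not pass the test. Markers of T and B lymphocytes (10 of 12), fibroblasts and endothelium (10 of 12) and epithelium (9 of 10) were under the silent level in both groups. In the neutrophil list 9 of 11 were, with S100a9 among them, whereas Mmp9 and S100a8 rose to 12.89 ± 0.15 and 12.94 ± 0.22 with LPS from under the silent level, and the mean of the list ran from 2.98 to 3.33 in control cells and from 4.75 to 5.07 with LPS. The part of other cells in any result was not tested.

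LPS changed 7493 gene features, or 33.7%, at an adjusted p under 0.05 in limma. Of these, 2992 (13.5%) were higher and 4501 (20.3%) lower with LPS. Among the 11508 features whose mean lay above the silent level, the shares were 21.8% and 37.3%. The median difference was -0.19 over these features and 0.03 over all. Counts in the gene lists below are to be read against both backgrounds. For lists whose members mostly lie above the silent level, the second is the closer one. The arrays of the groups did not overlap for 2887 of the higher and 4415 of the lower features. Changed genes named below, apart from those of the LPS receptor, were taken from these, so their lack of overlap follows from that choice. Rises reached further than falls: 153 features were higher by at least 6 on the log2 scale and 18 were lower by that much, although the falls were more numerous at a size of at least 1 (2893, or 13%, against 1672, or 7.53%). A rise from under the silent level was seen for 707 features, and 432 fell to a mean under it. For such genes the size is bounded by the floor of the array, and the change against the silent level is given as "at least".

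Beyond the cytokines, the features that gained most encoded a serpin, an iron-sequestering protein, an acute-phase apolipoprotein and a mitochondrial enzyme. Serpinb2, an inhibitor of plasminogen activators, read 3.96, 4.37 and 4.20 on the control arrays and 17.82, 17.52 and 17.75 on the LPS arrays. Lcn2, which binds bacterial siderophores, read 3.84, 4.01 and 4.35 on the control arrays and 16.94, 17.16 and 16.92 on the LPS arrays. Saa3, an acute-phase apolipoprotein, rose from 5.03 ± 0.11 to 17.55 ± 0.01 (SD, n = 3, as for all values given with ± below), a difference of 12.52. The LPS arrays lay far above every control array for all of them, and the rises of Serpinb2 and Lcn2 were at least 12.97 and 12.28 against the silent level. The largest falls included a chemotactic receptor, a prostaglandin-degrading enzyme, a Ras activator, a lysosomal sulfatase and an iron reductase. Gpr183, the receptor for oxysterols that steers cell migration, read 13.81, 13.47 and 13.21 on the control arrays and 4.74, 4.56 and 4.64 on the LPS arrays, a fall of at least 8.77 against the silent level. Hpgd, which inactivates prostaglandins, read 10.73, 10.85 and 10.91 in control cells and 3.09, 3.56 and 3.16 with LPS, a fall of at least 6.10. Rasgrp3, an exchange factor that activates Ras and Rap, stayed well above the silent level after falling from 15.25 ± 0.11 to 8.08 ± 0.26 (difference -7.17, adjusted p = 1.3e-18). Steap3, an endosomal ferric reductase, and Sgsh, which degrades heparan sulfate, fell by at least 5.77 and 6.07 to under the silent level.

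**Figure D1:**
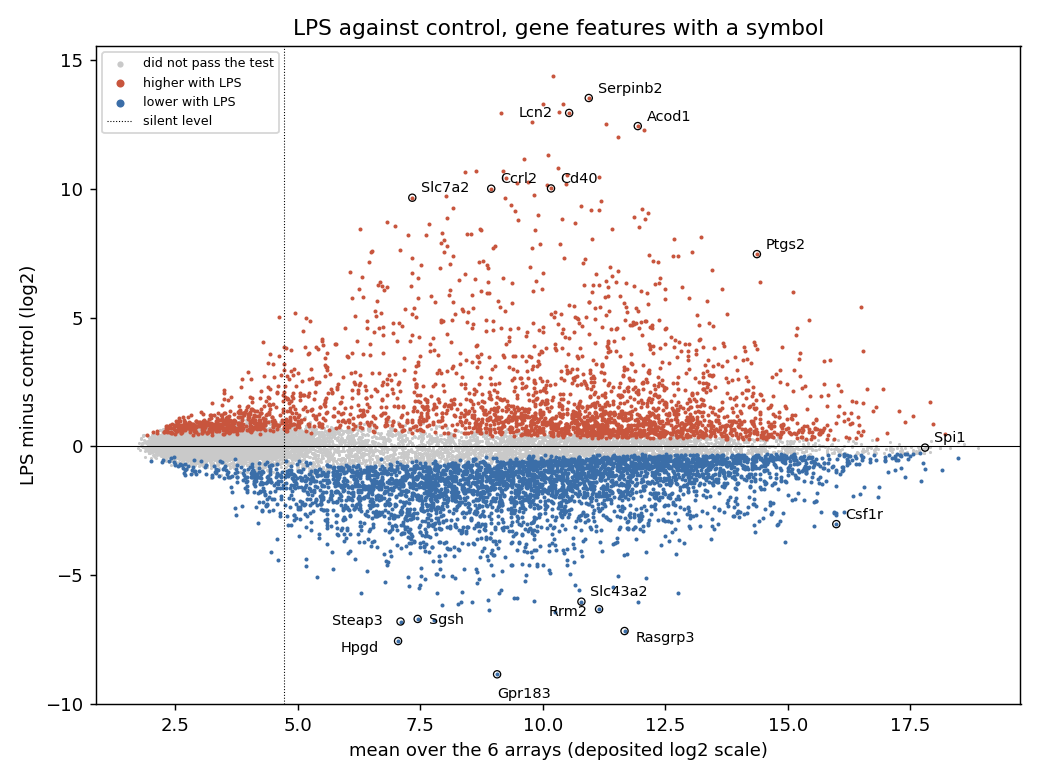
Difference between LPS and control against the mean of the 6 arrays, both on the deposited log2 scale, with 1 point per gene feature that has a symbol. Circled genes are named in the text, the dotted line is the silent level of 4.73, and the falls reach -8.85 for Gpr183 whereas Serpinb2 rises by 13.52.

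The sequence in front of some of these genes can be read from RefSeq (GRCm38.p6), which holds a promoter window, 250 bases before to 50 after a gene's start, for 15691 of the 19505 measured symbols. The windows were searched on both strands for the letters GAAA followed by any 2 bases and GAAA again, a core shared by sites for interferon-stimulated gene factors, and for TTTNGCGC, a core of sites for E2F factors. The first occurred in 48 of the 226 genes with a window that rose by at least 4 (21.2%), against 3.94% of all measured genes with a window, and in 3 of the 91 that fell by at least 4 (3.3%). The second occurred in 9 of those 91 (9.89%) and in 4 of the 226 (1.77%), against 2.11% of all. These are matches of letters and not sites shown to be bound, and a symbol counts as a match where any of its windows holds the letters. Some genes with the letters moved the other way, such as Traf1, which rose with TTTNGCGC, and E2f8, which fell with the GAAA pair. The 60-base stretches printed here, 5′ to 3′ on the gene's strand, lie wholly in front of the start of 3 genes that rose and 2 that fell, with the matched letters in capitals.
Clec2d (chr6:129180406-129180465, plus strand): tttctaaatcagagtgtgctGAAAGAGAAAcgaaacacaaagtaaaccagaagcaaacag
Fcgr4 (chr1:171018833-171018892, plus strand): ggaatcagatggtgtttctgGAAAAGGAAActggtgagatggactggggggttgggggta
Trim30a (chr7:104465194-104465253, minus strand): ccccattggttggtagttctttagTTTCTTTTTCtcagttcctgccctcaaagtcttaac
Dtl (chr1:191575545-191575604, minus strand): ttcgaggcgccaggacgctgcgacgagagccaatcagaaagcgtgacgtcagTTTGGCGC
Mcm6 (chr1:128359772-128359831, minus strand): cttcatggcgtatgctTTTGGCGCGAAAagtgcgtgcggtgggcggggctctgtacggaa
In Trim30a the match lies on the opposite strand, so that it reads as its reverse complement, and in Mcm6 the capitals hold a match on each strand that overlap. The values of Clec2d, Fcgr4, Trim30a, Dtl and Mcm6 are given with the groups to which they belong.

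Receptors that sense microbial molecules rose more often than all features, but not throughout. Of 29 measured pattern recognition receptors 16 were higher (55.2%) and 7 lower (24.1%), with a median difference of 0.71 against 0.03 over all features. Cytosolic sensors of nucleic acids made the largest rises. Zbp1, a sensor of Z-form nucleic acid, read 3.50, 3.62 and 3.53 in control cells and 12.70, 12.88 and 12.86 with LPS, and rose by at least 8.09 against the silent level. Ifih1, the double-stranded RNA sensor MDA5, rose from 8.66 ± 0.05 to 15.87 ± 0.15, and Dhx58, its cofactor LGP2, from 7.73 ± 0.85 to 14.43 ± 0.13. Nod2, which detects muramyl dipeptide of the bacterial wall, rose from 5.17 ± 0.25 to 9.50 ± 0.04. The 7 members that fell included Toll-like receptors and a regulator of them, and 3 of the 7 falls reached 1. Tlr13, which recognizes bacterial ribosomal RNA, fell from 12.20 ± 0.17 to 9.55 ± 0.18, and Tlr9, for CpG DNA, from 6.79 ± 0.29 to 5.11 ± 0.47. Cd180, a surface homologue of Toll-like receptor 4, fell by 1.43 (adjusted p = 8.5e-09). Of the LPS receptor itself, added to the named genes after its values were seen, Tlr4 fell from 12.77 ± 0.11 to 12.26 ± 0.12, while Cd14 and Ly96, which encodes MD-2, rose from 16.68 ± 0.11 to 16.95 ± 0.04 and from 14.08 ± 0.15 to 15.32 ± 0.12. The rise of Cd14 lost its call in 7 of the 13 alternative fits.

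Scavenger and engulfment receptors changed in both directions, with 7 of 31 higher (22.6%) and 8 lower (25.8%). Over all features the shares were 13.5% and 20.3%, and over those above the silent level 21.8% and 37.3%. In both groups 13 of the 31 lay under the silent level. Clec2d, a C-type lectin, read 5.60, 5.71 and 4.76 on the control arrays and 12.40, 12.51 and 12.21 on the LPS arrays, and no array of 1 group came near the other. The mannose receptor Mrc1 rose by at least 6.01 against the silent level to 10.74 ± 0.25, and Axl, a kinase that binds phosphatidylserine through Gas6, rose from 4.91 ± 0.50 to 9.93 ± 0.21. Olr1, a receptor for oxidized lipoprotein, rose from 7.26 ± 0.16 to 11.24 ± 0.27. Other receptors of the list, several of them for lipoproteins, fell. Lrp8 fell from 11.09 ± 0.02 to 6.67 ± 0.10 (adjusted p = 1.1e-13), Lrp1 from 14.86 ± 0.32 to 12.66 ± 0.14, Scarb1, which takes up high-density lipoprotein, from 11.49 ± 0.16 to 9.17 ± 0.18 and the collectin Colec12 from 15.94 ± 0.08 to 13.39 ± 0.09. Cd36, which takes up oxidized lipoprotein and fatty acids, read 15.84 ± 0.19 in control cells and 15.79 ± 0.03 with LPS, and the 95% confidence interval of its difference, the measure given for genes below that did not pass, ran from -0.28 to 0.18.

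Chemoattractant receptors parted into a few large rises and falls, with 7 of 25 higher (28%), 3 lower (12%) and 12 under the silent level throughout. Ccrl2, which binds the chemoattractant chemerin without signalling, read 4.25, 3.41 and 4.18 on the control arrays and 13.87, 13.87 and 14.10 on the LPS arrays, a rise of at least 9.22. Ccr1, a receptor for CCL3 and CCL5, rose by at least 5.15 to 9.88 ± 0.32. The falls were Gpr183, described above, and the receptors for fractalkine and CXCL12. Cx3cr1 read 13.61, 13.64 and 13.76 in control cells and 10.48, 10.71 and 10.64 with LPS (adjusted p = 8.4e-13), and Cxcr4 fell from 7.62 ± 0.14 to a mean under the silent level. The complement receptor C5ar1 did not pass the test, with an interval of -0.01 to 0.65 for its difference.

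Receptors for lipids, purines and metabolites showed 12 members higher (26.1%) and 8 lower (17.4%) of 46, while 23 stayed under the silent level. Hcar2, the receptor for nicotinic acid and ketone bodies, read 6.45, 6.12 and 6.65 on the control arrays and 15.65, 15.51 and 15.57 on the LPS arrays, with no array of 1 group near the other. Ptger2, a prostaglandin E2 receptor that raises cyclic AMP, rose by at least 6.16 to 10.89 ± 0.27, whereas Ptger4, another receptor for the same ligand, read 9.70 ± 0.36 in control cells and 9.67 ± 0.17 with LPS and did not pass the test. P2ry2, a G protein-coupled receptor for ATP and UTP, rose from 7.66 ± 0.26 to 12.19 ± 0.03, and Lpar1, for lysophosphatidic acid, from 8.40 ± 0.17 to 12.15 ± 0.11. Ion channels opened by ATP split. P2rx7, the channel that triggers inflammasome assembly at high ATP, fell from 12.04 ± 0.27 to 7.43 ± 0.12 (difference -4.61), while P2rx4 rose from 9.13 ± 0.09 to 12 ± 0.11 (difference 2.87). The medium-chain fatty acid receptor Gpr84, counted with 97 adhesion and orphan receptors of which 66 were under the silent level, rose from 12.47 ± 0.18 to 15.44 ± 0.03.

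Chains of interleukin, interferon and colony-stimulating factor receptors were higher in 18 of 39 (46.2%) and lower in 5 (12.8%). Il4ra, the chain shared by the interleukin 4 and interleukin 13 receptors, read 6.45, 6.39 and 5.80 on the control arrays and 12.57, 12.56 and 12.50 on the LPS arrays. Il13ra2, a decoy for interleukin 13, rose from 7.51 ± 0.55 to 11.81 ± 0.14, and Il7r rose from 7.45 ± 0.38 to 10.58 ± 0.24. Csf1r, the receptor for macrophage colony-stimulating factor, read 17.48, 17.46 and 17.54 in control cells and 14.44, 14.52 and 14.46 with LPS, and fell by 3.02 (adjusted p = 2.1e-15), each group keeping to a narrow band. Il6ra fell from 12.88 ± 0.09 to 10.36 ± 0.27. Of the interferon receptors, Ifnar2 fell by 1.41, while Ifngr2 did not pass the test, at an interval of -0.26 to 0.15 for the difference.

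Growth factor receptors held 10 risers (25.6%) and 9 fallers (23.1%) among 39, of which 12 lay under the silent level in both groups. Notch1, a receptor for contact signals between cells, read 3.12, 3.06 and 4.62 on the control arrays and 9.86, 9.86 and 9.79 on the LPS arrays, a rise of at least 5.11, although 1 control array lay closer to the silent level than the others. Notch2 rose from 11.51 ± 0.35 to 13.96 ± 0.04 and Flt1, a receptor for vascular endothelial growth factor, from 9.51 ± 0.25 to 13.15 ± 0.03. Both signalling chains for TGF-beta fell, Tgfbr1 from 10.82 ± 0.21 to 7.58 ± 0.29 and Tgfbr2 from 13.42 ± 0.20 to 10.55 ± 0.15. In the TNF receptor superfamily 5 of 25 were higher (20%) and 7 lower (28%). Cd40, through which T cells stimulate macrophages, read 5.44, 5.0 and 5.04 on the control arrays and 15.26, 15.01 and 15.24 on the LPS arrays. Tnfrsf1b, the second TNF receptor, rose from 7.20 ± 0.24 to 15.62 ± 0.15, and Fas, a death receptor, rose from 5.13 ± 0.86 to 12.84 ± 0.18, its control arrays spreading more widely than those with LPS. Tnfrsf11a, the receptor RANK on which osteoclast formation depends, fell from 12.61 ± 0.06 to 8.65 ± 0.12, and Tnfrsf12a, the receptor for TWEAK, from 10.42 ± 0.18 to 8.28 ± 0.22.

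Immunoglobulin-type receptors that stimulate or restrain T cells were higher in 22 of 51 (43.1%) and lower in 10 (19.6%). Cd274, which encodes PD-L1, rose by at least 9.32 to 14.04 ± 0.12, Cd80 from 8.79 ± 0.19 to 15.93 ± 0.05 and Slamf7 by at least 6.62. The fallers included receptors that hold macrophages or T cells in check. Havcr2, or TIM-3, fell from 12.39 ± 0.17 to 8.83 ± 0.20, Trem2, a lipid-sensing receptor of tissue macrophages, from 15.35 ± 0.09 to 13.01 ± 0.15 and Sirpa, which receives the CD47 signal, from 15.09 ± 0.09 to 12.86 ± 0.21. Of 11 Fc receptors and adaptors 5 were higher (45.5%) and 3 lower (27.3%). Fcgr4 read 5.87, 6.04 and 4.68 in control cells and 10.06, 10.72 and 10.44 with LPS and Fcgr2b, the inhibitory receptor for immunoglobulin G, rose from 10.61 ± 0.16 to 15.69 ± 0.12. The adaptor Tyrobp fell by 0.93. Among 26 integrin genes, 9 rose (34.6%) and 3 fell (11.5%). The myeloid chain Itgax rose from 6.60 ± 0.33 to 12.16 ± 0.18 and Itgal from 9.33 ± 0.05 to 13.34 ± 0.15, whereas Itgb5 fell from 12.52 ± 0.15 to 8.37 ± 0.22, Itga6 from 11.24 ± 0.23 to 7.48 ± 0.32 and Itga4 from 17.08 ± 0.09 to 13.97 ± 0.16. Itgb1, the beta chain that pairs with Itga4 and Itga6, read 13.84 ± 0.16 in control cells and 13.80 ± 0.08 with LPS, with an interval of -0.31 to 0.23 for the difference.

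**Figure D2:**
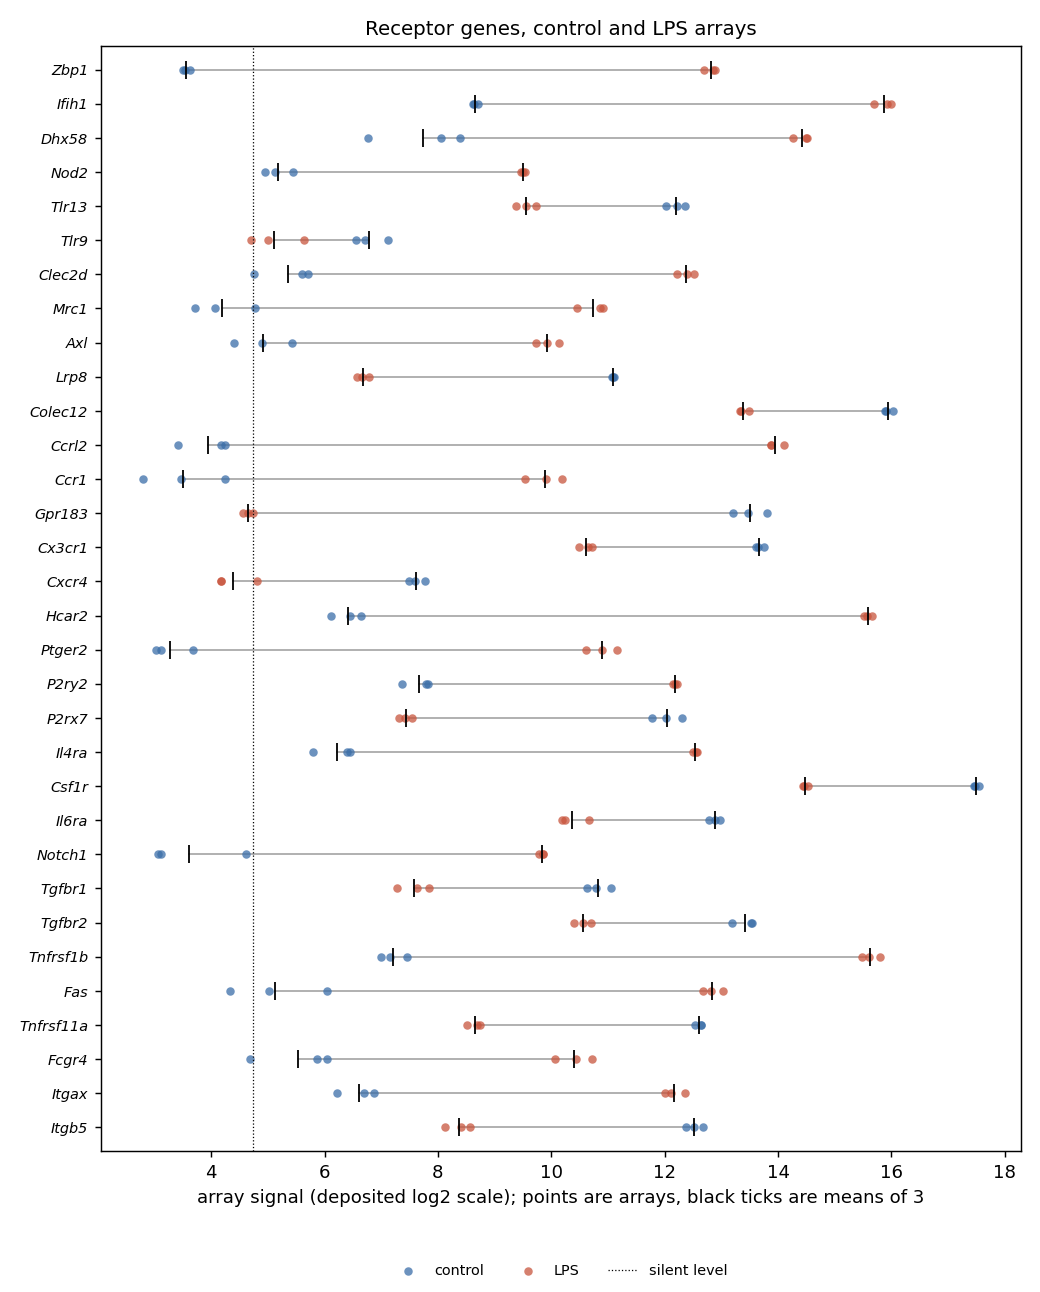
Array signal on the deposited log2 scale for receptor genes named in the text, with each of the 3 control and 3 LPS arrays as a point, group means as black ticks and the silent level as a dotted line. Genes drawn were chosen among those whose groups do not overlap. Gpr183, Cxcr4, Zbp1, Mrc1, Ccrl2, Ccr1, Ptger2 and Notch1 have 1 group mean under the silent level.

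Amino acid transporters were higher in 9 of 36 (25%) and lower in 12 (33.3%), near the 21.8% and 37.3% of features above the silent level. Slc7a2, a carrier of arginine and other cationic amino acids, read 2.13, 2.30 and 3.11 on the control arrays and 12.05, 12.09 and 12.34 on the LPS arrays. Its control arrays were all under the silent level, and the rise was at least 7.43. Slc7a11, which exchanges glutamate for cystine, read 9.97, 9.82 and 10.29 on the control arrays and 16.93, 16.79 and 16.89 on the LPS arrays, and Slc15a3, a lysosomal carrier of histidine and peptides, rose from 11.25 ± 0.12 to 17.63 ± 0.07. Slc43a2, a carrier of leucine and other neutral amino acids, moved in the other direction, at 13.63, 13.85 and 13.93 in control cells and 7.95, 7.70 and 7.69 with LPS (difference -6.03, adjusted p = 5.8e-15). Ctns, which exports cystine from lysosomes, fell by 1.52. The glutamine carriers Slc38a1 and Slc38a2 did not pass the test, with intervals of -0.33 to 0.09 and -0.11 to 0.34 for their differences.

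Sugar and monocarboxylate transporters were lower in 12 of 28 (42.9%) and higher in 5 (17.9%), with a median difference of -0.55. The glucose carriers did not move together. Slc2a1, or GLUT1, read 15.55, 15.45 and 15.54 in control cells and 17.85, 17.60 and 17.72 with LPS, and Slc2a6 rose from 12.04 ± 0.09 to 14.03 ± 0.11. Slc2a3, or GLUT3, fell from 10.64 ± 0.17 to 8.06 ± 0.45, and Slc2a9, which carries urate, from 7.97 ± 0.19 to 6.03 ± 0.21. Slc37a2, a sugar phosphate carrier found in macrophages, read 14.55, 14.61 and 14.81 in control cells and 9.16, 9.87 and 9.60 with LPS, a fall of 5.11. Slc16a7, a carrier of lactate and pyruvate, fell by at least 3.37 against the silent level, while Slc16a3, which exports lactate, read 14.65 ± 0.03 in control cells and 14.85 ± 0.06 with LPS and did not pass the test. The mitochondrial pyruvate carrier subunit Mpc1 did not pass it either, with an interval of -0.42 to 0.27 for its difference.

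Metal carriers were the transporter group with the largest share of rises, 21 of 47 (44.7%), with 11 lower. Slc39a14, which brings in zinc, iron and manganese, read 11.12, 10.68 and 10.72 on the control arrays and 15.54, 15.58 and 15.50 on the LPS arrays, and Slc31a2, a copper transporter, rose from 10.74 ± 0.28 to 14.59 ± 0.17. The endolysosomal cation channel Mcoln2 rose from 5.90 ± 0.24 to 11.25 ± 0.25, whereas its relative Mcoln1 fell from 13.10 ± 0.24 to 11.86 ± 0.16. Lcn2 and Steap3, at the ends of this list, are described above. The subunits of ferritin, Fth1 and Ftl1, lay near the top of the scale at 18.64 ± 0.03 and 17.54 ± 0.15 with LPS and neither passed the test. Mitochondrial carriers were lower in 20 of 48 (41.7%) and higher in 4 (8.33%). Slc25a37, the iron importer mitoferrin 1, rose from 9.06 ± 0.15 to 12.56 ± 0.09, whereas Slc25a10, which carries dicarboxylates such as malate and succinate, fell from 10.45 ± 0.23 to 7.21 ± 0.55.

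Nucleoside, vitamin and organic solute carriers were higher in 6 of 70 and lower in 12, with 48 under the silent level in both groups. When features were filtered at the silent level before the test, 12 of the 22 that remained were lower and 5 higher, while that fit called 4635 lower and 2761 higher of 11508 features. Slc28a2, which concentrates purine nucleosides with sodium, read 3.70, 4.62 and 4.28 in control cells and 10.51, 10.49 and 10.31 with LPS, a rise of at least 5.71. The equilibrative nucleoside carriers Slc29a1 and Slc29a2 fell by 2.24 and 2.72, and Slco4a1, an organic anion carrier, fell from 13.69 ± 0.15 to 10.39 ± 0.20. Of 50 ABC transporters 7 were higher and 14 lower. Abca1, which loads cholesterol onto apolipoprotein A-I, read 7.63, 8.06 and 8.04 in control cells and 13.36, 13.39 and 13.27 with LPS, and Tap1, which moves peptides for class I presentation, rose from 9.67 ± 0.07 to 14.54 ± 0.08. Abcc3 fell from 11.44 ± 0.27 to 8.21 ± 0.19 and Abcb4 from 11.74 ± 0.18 to 9.13 ± 0.20. Ion channels, 167 genes with 121 under the silent level, held 16 higher and 18 lower, and with the same filter 14 were higher and 16 lower of 42. The endolysosomal channel Tpcn1 fell from 11.86 ± 0.22 to 7.30 ± 0.51, and the lysosomal sialic acid carrier Slc17a5 from 13.35 ± 0.15 to 9.59 ± 0.18. Stim2, a calcium sensor of the endoplasmic reticulum, rose from 10.88 ± 0.22 to 13.38 ± 0.01, whereas its channel partner Orai3 fell from 10.88 ± 0.16 to 7.83 ± 0.29. Aqp9, a channel for water and glycerol, was the single aquaporin called of 11 and rose by at least 1.13.

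**Figure D3:**
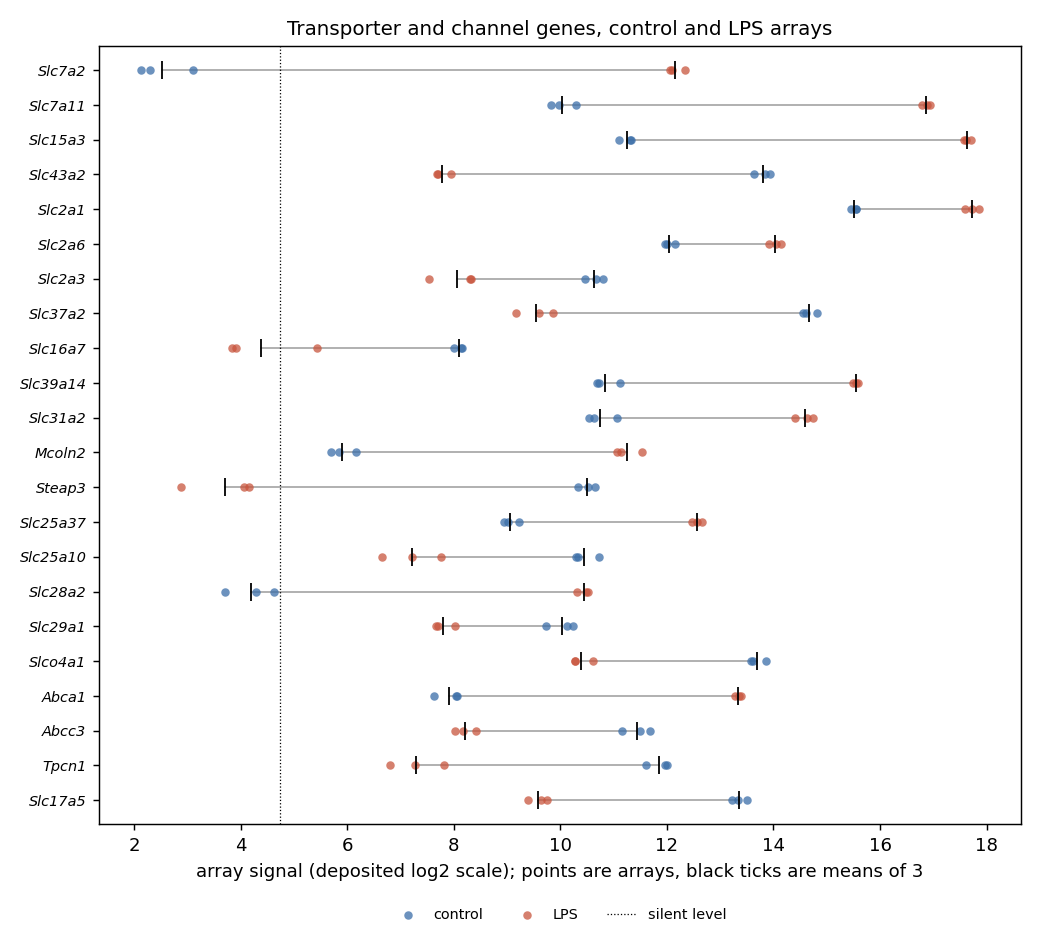
Array signal on the deposited log2 scale for transporter and channel genes, with each control and LPS array as a point, means of 3 as black ticks and the silent level as a dotted line. Slc7a2 and Slc28a2 start under the silent level, and Slc16a7 and Steap3 end under it. Genes drawn were chosen among those whose groups do not overlap.

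In arginine and itaconate metabolism 10 of 26 genes were higher and 8 lower. Acod1, which makes itaconate from aconitate, read 5.87, 5.60 and 5.72 on the control arrays and 18.13, 18.16 and 18.17 on the LPS arrays. Nos2, the inducible nitric oxide synthase, rose by at least 9.81 to 14.53 ± 0.06, and Gch1, which supplies its cofactor tetrahydrobiopterin, rose from 9.22 ± 0.20 to 14.58 ± 0.08. The later steps of the same cofactor pathway did not follow. Spr, which completes tetrahydrobiopterin, fell from 9.13 ± 0.38 to 7.56 ± 0.47 and Qdpr, which regenerates it, from 10.39 ± 0.09 to 8.92 ± 0.30. Arg2, the mitochondrial arginase, rose by at least 5.13.

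In glycolysis more genes were lower (16 of 34, or 47.1%) than higher (7, or 20.6%). Among features above the silent level the shares were 37.3% and 21.8%. Pfkfb3, which makes the activator of phosphofructokinase, read 8.90, 9.04 and 9.09 on the control arrays and 14.99, 15.19 and 14.88 on the LPS arrays (difference 6.01, adjusted p = 1.1e-16). The hexokinases moved in different directions, with Hk2 rising from 11.36 ± 0.26 to 13.31 ± 0.06 and Hk3 from 9.21 ± 0.13 to 10.36 ± 0.19, and Hk1 falling from 13.71 ± 0.10 to 11.81 ± 0.06. Pdk1, which shuts off pyruvate dehydrogenase, fell from 11.53 ± 0.09 to 8.39 ± 0.29, as did Pdp1, the phosphatase that opposes it, from 10.02 ± 0.09 to 7.71 ± 0.50. Gapdh, which oxidizes glyceraldehyde phosphate, read 17.56 ± 0.05 in control cells and 17.33 ± 0.17 with LPS and did not pass the test. Of 21 pentose phosphate and glycogen genes 8 were lower (38.1%) and 2 higher (9.52%). Prps2, which makes phosphoribosyl pyrophosphate, fell from 12.18 ± 0.31 to 8.34 ± 0.34, and the glycogen phosphorylase Pygb from 10.63 ± 0.05 to 7.26 ± 0.31.

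Genes of mitochondrial oxidation were mostly lower. A list of the tricarboxylic acid cycle and of enzymes that connect to it, some of them cytosolic, held 26 genes. Of these 19 were lower (73.1%) and 1 was higher, Pck2, with a median difference of -0.85. Isocitrate dehydrogenases were among those that fell. Idh1, the cytosolic form, read 15.02, 15.07 and 14.87 in control cells and 12.93, 12.79 and 12.88 with LPS. The mitochondrial Idh2 fell from 13.38 ± 0.09 to 11.40 ± 0.15 and Idh3a from 15.28 ± 0.13 to 13.80 ± 0.08. Got1, an aspartate aminotransferase that links the cycle to the malate shuttle, fell from 12.25 ± 0.10 to 10.53 ± 0.05. Acly, which draws citrate out of the cycle for lipid synthesis, read 13.64 ± 0.17 in control cells and 13.89 ± 0.17 with LPS and did not pass the test. Fatty acid oxidation and peroxisome genes were lower in 24 of 41 and higher in 2, with a median difference of -0.63. Cpt1a, which admits fatty acids to mitochondria, fell from 10.65 ± 0.12 to 7.73 ± 0.32, Hadh, an enzyme of the oxidation spiral, from 11.43 ± 0.17 to 8.33 ± 0.33 and Ppargc1b, a coactivator of mitochondrial genes, from 9.54 ± 0.30 to 6.33 ± 0.95.

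Subunits of the respiratory chain fell by less. Of 81 genes 40 were lower (49.4%) and 1 was higher (1.23%), while features above the silent level had shares of 37.3% and 21.8%. The median difference was -0.33, against -0.19 over those features, and 3 of the falls reached 1. When the 6 arrays were fitted alone, 25 were lower. Ndufs7 fell from 12.89 ± 0.11 to 11.48 ± 0.15, Ndufv2 from 13.70 ± 0.10 to 12.64 ± 0.14 and Atp5c1 from 14.74 ± 0.15 to 13.67 ± 0.10, the first a difference of -1.41. Uqcrb did not pass the test, with an interval of -0.43 to 0.04 for its difference. Mitochondrial ribosomal proteins were lower in 31 of 76 (40.8%) and higher in 7 (9.21%), against 37.3% and 21.8% of features above the silent level. Mrpl49 fell from 12.49 ± 0.04 to 10.30 ± 0.04 and Mrpl42 from 14.39 ± 0.14 to 12.45 ± 0.07, while Mrpl52 rose from 12.99 ± 0.31 to 14.91 ± 0.03. In cytosolic ribosomal proteins, by contrast, 12 of 60 were called, all lower, and no member fell by more than 0.50. That count ran from 1 when the 6 arrays were fitted alone to 29 with a variance trend, and Rps6 read 18.14 ± 0.06 in control cells and 18.06 ± 0.00 with LPS.

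Lipid metabolism changed in both directions. Among 42 genes of fatty acid and glyceride synthesis 9 were higher (21.4%) and 15 lower (35.7%), near the 21.8% and 37.3% of features above the silent level. Hilpda, which holds back lipolysis at lipid droplets, rose from 7.41 ± 0.52 to 12.19 ± 0.09, Agpat4, an acyltransferase of phosphatidic acid synthesis, from 8.72 ± 0.28 to 12.29 ± 0.00 and Acsl4, which activates arachidonic acid, from 13.14 ± 0.08 to 15.44 ± 0.19. Several enzymes that elongate and desaturate fatty acids fell, Elovl6 from 12.15 ± 0.14 to 7.61 ± 0.49, Elovl5 from 14.74 ± 0.10 to 11.66 ± 0.20 and Fads1 from 15.24 ± 0.22 to 12.53 ± 0.09. In cholesterol synthesis 8 of 21 were lower (38.1%) and 4 higher (19%), again near the shares of features above the silent level. Dhcr7, the last step, fell from 10.21 ± 0.31 to 7.11 ± 0.04, and Insig1, which restrains the pathway, rose from 11.52 ± 0.19 to 12.98 ± 0.19. Srebf2, the factor that drives the pathway, did not pass the test, with an interval of -0.36 to 0.13 for its difference. On the export side Abca1 and Abcg1 parted, since Abcg1 fell from 10.67 ± 0.15 to 8.96 ± 0.18. Cyp27a1, which makes 27-hydroxycholesterol, fell from 7.49 ± 0.38 to under the silent level. Npc2, which releases cholesterol from lysosomes, rose from 11.14 ± 0.06 to 13.72 ± 0.04.

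Eicosanoid genes were few in number called (2 higher and 7 lower of 24) but large in size. Ptgs2, or cyclooxygenase 2, read 10.77, 10.14 and 11 on the control arrays and 18.04, 18.22 and 18.04 on the LPS arrays, and Ptges, which turns its product into prostaglandin E2, rose from 5.02 ± 0.10 to 10.61 ± 0.16. These were the 2 members called higher, both on the route to prostaglandin E2, while Hpgd, which inactivates prostaglandins, fell as given above. Genes of the leukotriene and prostaglandin D branches were among those that fell. Alox5, or 5-lipoxygenase, read 11.42, 11.58 and 11.44 in control cells and 6.31, 6.58 and 6.54 with LPS, its helper Alox5ap fell from 14.14 ± 0.12 to 11.78 ± 0.18 and Hpgds, a prostaglandin D synthase, from 13.31 ± 0.09 to 10.61 ± 0.23. Pla2g4a, the phospholipase that frees arachidonic acid, read 14.20 ± 0.15 in control cells and 14.23 ± 0.17 with LPS and did not pass the test. Sphingolipid and phospholipid genes divided almost evenly, with 18 of 50 higher and 15 lower. Ugcg, which makes glucosylceramide, rose from 9.37 ± 0.22 to 11.83 ± 0.09, and Lpcat4, an acyltransferase for lysophospholipids, fell from 10.49 ± 0.25 to 6.70 ± 0.35.

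Nucleotide metabolism fell as a group, with 31 of 44 genes lower (70.5%) and 6 higher, and a median difference of -1.23. Rrm2, the small subunit of ribonucleotide reductase, read 14.59, 14.25 and 14.08 in control cells and 8.47, 7.90 and 7.60 with LPS, and Rrm1, the large subunit, fell from 14.59 ± 0.05 to 11.41 ± 0.08. Dut, which removes dUTP, fell from 10.33 ± 0.52 to 6.06 ± 0.51, and the thymidine kinase Tk1 to under the silent level from 8.43 ± 0.24. Those that rose included enzymes that degrade or phosphorylate nucleosides and nucleotides. Upp1, uridine phosphorylase, read 2.32, 2.81 and 2.28 on the control arrays and 11.44, 11.01 and 11.04 on the LPS arrays, a rise of at least 6.43. Cmpk2, a mitochondrial kinase for pyrimidine nucleotides, rose from 7.41 ± 0.23 to 16.63 ± 0.22, and Pnp, which cleaves purine nucleosides, from 10.51 ± 0.21 to 14.48 ± 0.14. Samhd1, which destroys deoxynucleotides, rose from 13.10 ± 0.13 to 15.28 ± 0.11.

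One-carbon and serine genes were lower in 12 of 25 (48%) and higher in 6 (24%). Cth, which makes cysteine from cystathionine, rose from 5.66 ± 0.16 to 9.87 ± 0.27, and the mitochondrial folate enzyme Mthfd2 from 12.17 ± 0.13 to 14.39 ± 0.16. Mthfd1, its cytosolic counterpart, fell from 11.39 ± 0.18 to 9.83 ± 0.06, and Shmt1 from 9.02 ± 0.21 to 7.24 ± 0.33. NAD and ADP-ribose genes were higher in 13 of 28 and lower in 7. Among those that rose were members of the poly-ADP-ribose polymerase family, Parp14 from 8.01 ± 0.17 to 14.01 ± 0.11 and Parp10 from 10.21 ± 0.37 to 14.81 ± 0.04. The sirtuins Sirt3 and Sirt5, deacylases of mitochondrial proteins, fell by 1.55 and 1.88. In the redox list 8 of 39 were higher (20.5%) and 14 lower (35.9%), near the 21.8% and 37.3% of features above the silent level. Chac1, which degrades glutathione, read 5.82, 5.79 and 6.19 in control cells and 12.04, 11.88 and 11.73 with LPS, and the mitochondrial superoxide dismutase Sod2 rose from 13.44 ± 0.11 to 17.06 ± 0.03. Gclc, the catalytic subunit that starts glutathione synthesis, fell from 15.50 ± 0.07 to 13.19 ± 0.06, whereas its modifier subunit Gclm read 15.21 ± 0.08 in control cells and 15.17 ± 0.06 with LPS and did not pass the test. Gpx4, which repairs lipid peroxides, fell from 12.85 ± 0.21 to 10.86 ± 0.14, and Txnip, an inhibitor of thioredoxin and of glucose uptake, from 15.33 ± 0.04 to 13.29 ± 0.29.

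The repressed genes were led by chromosome duplication. All 43 measured DNA replication genes were lower, by a median of -3.08 against 0.03 over all features, as were 56 of 57 mitosis genes, with Pttg1, or securin, the single member not called. Mcm6, a subunit of the replicative helicase, read 14.94, 14.87 and 15.08 in control cells and 8.77, 9.10 and 8.93 with LPS. Chaf1b, which places histones on new DNA, read 12.12, 11.93 and 12.19 in control cells and 5.56, 5.98 and 5.69 with LPS, and Dtl, a substrate receptor that clears licensing factors in S phase, fell from 11.37 ± 0.20 to 5.32 ± 0.75. The arrays of the groups lay far apart for these genes. In bulk RNA, fewer dividing cells and less of these transcripts per cell cannot be told apart. In the DNA replication list 12 of 34 genes with a promoter window (35.3%) held the letters TTTNGCGC, against 2.11% of all. The share was lower in the mitosis list, 5 of 50 (10%), and in the respiratory chain list, 4 of 67 (5.97%). Repair genes were lower in 53 of 74, with Exo1, an exonuclease of mismatch repair, falling from 11.11 ± 0.04 to 6.88 ± 0.04 and Msh6, a mismatch sensor, from 11.38 ± 0.24 to 7.09 ± 0.13. Ercc1, a nuclease subunit of excision repair, was 1 of 2 that rose, from 6.77 ± 0.20 to 10.12 ± 0.10.

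Histone genes were lower in 60 of 86, with 23 under the silent level in both groups. The linker histones H1f1 and H1f5 fell from 12.92 ± 0.17 to 8.68 ± 0.28 and from 12.89 ± 0.13 to 8.40 ± 0.47. Histone genes of 1 cluster are close copies, so probes may share signal between them. H3f3b, which encodes the replication-independent variant H3.3, rose from 15.86 ± 0.06 to 16.75 ± 0.02. Regulators of the cycle did not all fall, with 12 of 43 higher and 22 lower. E2f8, a repressor of the E2F family, fell from 13.47 ± 0.04 to 7.04 ± 0.86, and the activators E2f1 and E2f2 by 6.17 and at least 5.50, whereas E2f4 did not pass the test. Mxd1, a competitor of Myc, read 6.27, 6.64 and 6.41 on the control arrays and 14.13, 14.47 and 14.24 on the LPS arrays, and Myc itself rose from 10.50 ± 0.51 to 14.30 ± 0.15. The growth arrest genes Gadd45b and Gadd45a rose from 7.27 ± 0.60 to 14.37 ± 0.11 and from 6.26 ± 0.33 to 11.89 ± 0.20.

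Chromatin modifiers were lower in 39 of 97 (40.2%) and higher in 14 (14.4%), against 37.3% and 21.8% of features above the silent level. Dnmt1, which copies DNA methylation to new strands, fell from 12.80 ± 0.11 to 8.19 ± 0.33, Smarca2, an ATPase of the SWI/SNF complex, from 11.72 ± 0.28 to 7.63 ± 0.29 and Hdac9 from 11.38 ± 0.15 to 7.64 ± 0.44. Kdm6b, a histone demethylase, rose from 8.14 ± 0.29 to 13.76 ± 0.06, and Tet2, which oxidizes methylated cytosine, from 11.25 ± 0.10 to 14.98 ± 0.04. Zinc finger genes named Zfp were lower in 121 of 355 (34.1%) and higher in 32 (9.01%), and 70 lay under the silent level in both groups. Those shares also stand against 37.3% and 21.8% of features above the silent level. Filtered at that level before the test, 125 of 277 were lower and 35 higher. After quantile normalization 82 of the 355 were lower and 46 higher. Zfp362 fell from 10.01 ± 0.26 to 6.65 ± 0.69. Zfp36, or tristetraprolin, an RNA-binding protein that destabilizes cytokine transcripts, rose from 10.61 ± 0.20 to 16.72 ± 0.10.

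Transcription factors of the macrophage list were split, 33 of 83 higher and 30 lower. Irf7, a mediator of the interferon response, read 8.85, 8.52 and 8.58 on the control arrays and 16.61, 16.87 and 16.62 on the LPS arrays, Cebpd rose from 9.14 ± 0.28 to 15.10 ± 0.04 and Stat2 from 9.11 ± 0.04 to 14.31 ± 0.06. Maf, a factor of mature macrophages, rose by at least 7.15. Cebpa read 11.35, 11.80 and 11.80 in control cells and 7.44, 7.72 and 7.63 with LPS, in the opposite direction to its relative Cebpd. Mef2c fell from 14.16 ± 0.09 to 10.05 ± 0.10, Nfatc2, a calcium-regulated factor, from 10.02 ± 0.33 to 6.07 ± 0.24 and Klf10 from 9.98 ± 0.09 to 5.54 ± 0.40. Ikzf1, like Spi1, did not pass the test, with an interval of -0.06 to 0.46 for its difference.

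Phosphoinositide and diacylglycerol genes were lower in 26 of 74 (35.1%) and higher in 16 (21.6%), a balance close to that of features above the silent level. The phospholipases Plcb4 and Plcb2 fell from 12.05 ± 0.12 to 8.85 ± 0.49 and from 10.55 ± 0.26 to 8.14 ± 0.15. Rab and membrane traffic genes were lower in 39 of 127 (30.7%) and higher in 24 (18.9%). Rab27a, which docks secretory vesicles, fell from 10.48 ± 0.22 to 5.45 ± 0.61, whereas Rab20, a GTPase of phagosomes, rose from 5.46 ± 0.03 to 8.88 ± 0.15. Rab7, the GTPase of late endosomes, read 17.41 ± 0.05 in control cells and 17.25 ± 0.01 with LPS and did not pass the test. Ribosome biogenesis genes were lower in 29 of 73 (39.7%) and higher in 10, and Polr3g, a subunit of RNA polymerase III, fell from 9.45 ± 0.09 to 6.30 ± 0.27.

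**Figure D4:**
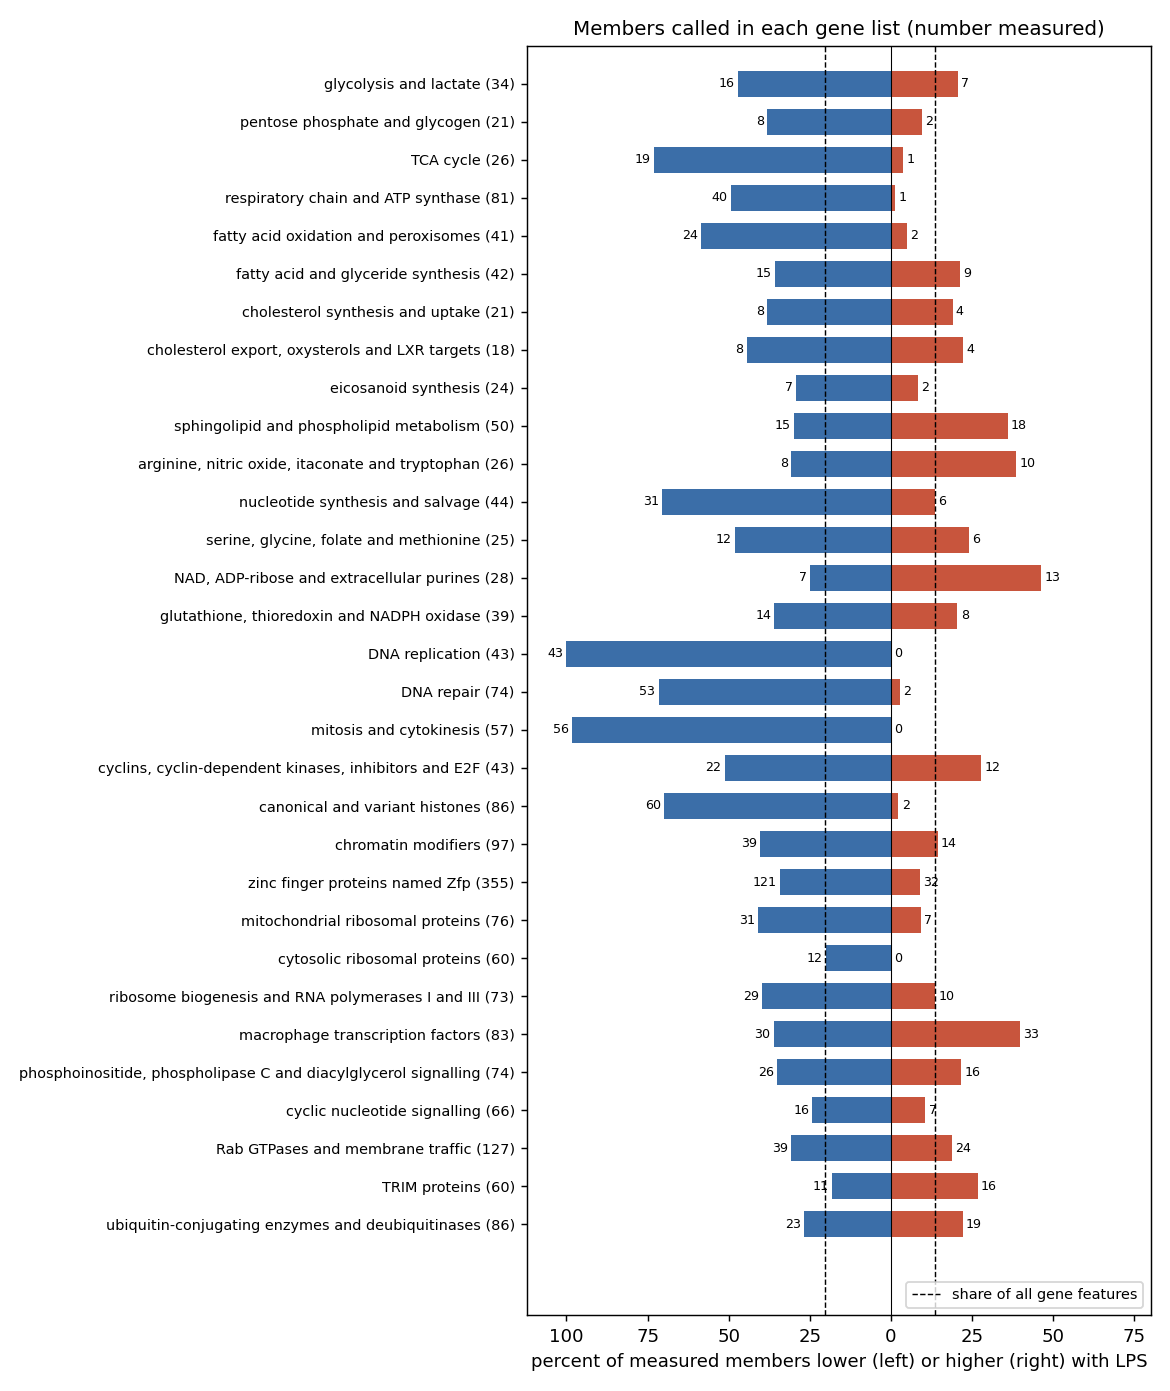
Percent of the measured members of each metabolic or repressed list that were lower (left, blue) or higher (right, red) with LPS, with the number of members called beside each bar and the number measured in brackets. Dashed lines mark the shares of all gene features, 20.3% lower and 13.5% higher. Among features above the silent level the shares, not drawn, were 37.3% lower and 21.8% higher. DNA replication and mitosis lie wholly on the left. Among the metabolic and repressed lists drawn, that of NAD, ADP-ribose and extracellular purines reaches furthest to the right.

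The change with LPS was measured again in cells that carried low PAC, as low PAC + LPS against low PAC. These 6 arrays are separate from the 6 above, but all 12 entered 1 fit and share its estimate of spread. With low PAC, 7717 features (34.8%) were called, 3057 higher and 4660 lower. Of the 7493 features called without PAC, 6393 (85.3%) were called in the same direction here, which is 82.8% of the calls with low PAC, and 2 were called in opposite directions. The difference between the changes was itself tested, and limma called 0 features (lowest adjusted p = 0.34), with 1049 at an unadjusted p under 0.05. With a variance trend and a robust prior 8 were called. Gpr183 read 13.70, 13.50 and 13.60 with low PAC and 4.59, 5.61 and 5.32 with low PAC + LPS, again a fall to near the silent level. Slc43a2 read 13.95, 13.97 and 13.85 with low PAC and 7.24, 8.33 and 8.14 with low PAC + LPS, with no overlap. Chac1 changed by 5.31 with low PAC and 5.95 without, Csf1r by -3.09 and -3.02, Pfkfb3 by 5.77 and 6.01, and Idh1 by -1.90 and -2.12. Of the 20 genes of the tricarboxylic acid cycle list that were called without PAC, 20 were called the same way with it. For the respiratory chain this held for 39 of 41 genes and for glycolysis for 22 of 23.

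**Figure D5:**
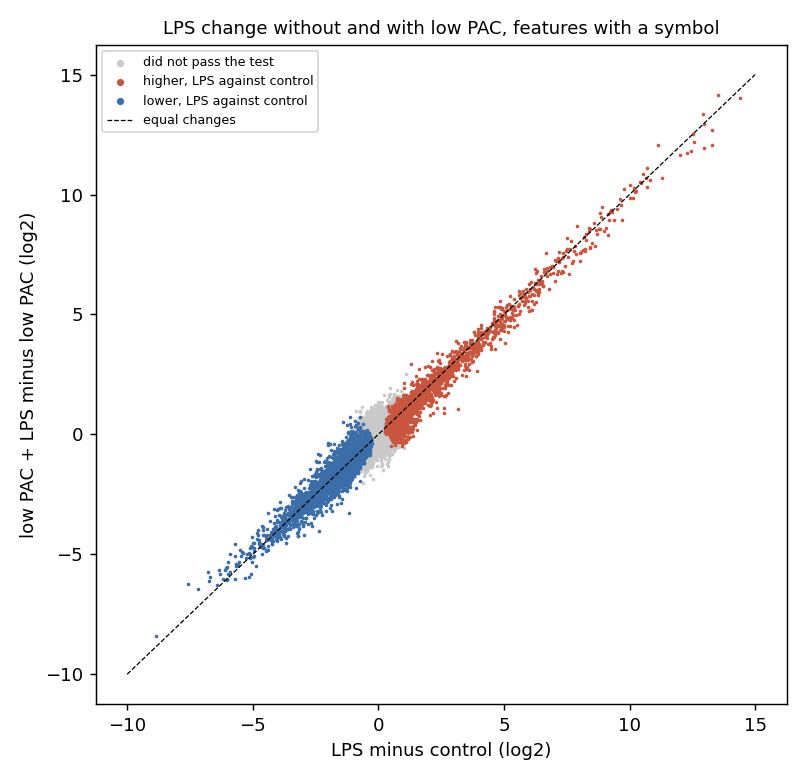
LPS change in cells with low PAC (vertical) against the change in cells without PAC (horizontal), both as differences on the log2 scale, with 1 point per gene feature that has a symbol, coloured by the call without PAC. Points follow the dashed line of equal changes over the whole range, from Gpr183 at the lower left to the cytokine genes at the upper right.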

How the data were processed

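The authors ran the samples on a 24-array Clariom S plate after whole-transcript labelling and analysed them in Transcriptome Analysis Console. They deposited 1 table of log2 values per feature (28846 features, 24 arrays), already summarised and normalized by methods not given in the sources used here. Values reached 19.26, and 8242 exceeded 16, the limit of a 16-bit pixel, so the scale was stretched or shifted and no linear folds are given. Control features (6640) were left out. A platform table named 19572 of 22206 features with 1 symbol (88.1%). Where a symbol had several features, lists used the one with the highest mean.

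Differences were tested in R 4.3.3 with limma 3.58.1 on all 24 arrays, with 1 mean per group, no further normalization, 16 residual and 3.39 prior degrees of freedom, and two-sided p-values adjusted by the Benjamini and Hochberg method over 22206 features. Brightness over background and the number of arrays limit the precision: the median SD within a group above the silent level (set on 1412 olfactory and vomeronasal receptor features) was 0.175 for control and 0.184 for LPS. The procedure was first tested on simulated data. Named genes were the 12 largest rises and falls over all features, in each of 59 lists up to 4 of each and up to 3 of the brightest not called, or fewer, where the arrays did not overlap and 1 group mean exceeded the silent level. The members and lists were chosen with earlier results of these data known, and 1 further list is not reported here. Alternatives were quantile normalization, centring of arrays, a filter at the silent level, only the arrays compared, a variance trend with robust prior, array weights, a replicate block and leaving out each replicate. Python 3.11.15 made the tables.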

Additional observations from a re-analysis of the deposited data

How the results depend on the processing

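The features called with LPS numbered between 6862 and 7732 under quantile normalization, centring, the filter, only the arrays compared, the variance trend with robust prior, array weights and the replicate block, and between 6854 and 7103 when each replicate was left out, against 7493. Those higher ran from 2629 to 3169 and those lower from 4136 to 4786 over all of these, and those changed by at least 1 from 4286 to 4626. The scalings moved the median of all features from 0.03 to -0.02 and -0.04. Deviations from the group mean correlated at 0.06, -0.01 and 0.008 between same-numbered arrays and from -0.062 to 0.059 between the others. This cannot settle whether the numbers pair samples, since many features lie near background. The replicate block gave 7420 calls for LPS, 7665 with low PAC and 0 for the difference of changes. With low PAC the calls ran from 6963 to 8023 against 7717, which includes fits that left out single low PAC arrays, chosen after seeing the data. The difference of changes called 0 features, except 8 under the variance trend with robust prior, which included Il1rn (-0.84) and Lhfpl2 (1.48), named after their values were seen. The cause was not tested. All 246 genes named were followed, and those called kept their call and direction in each of the 13 alternatives that tested them, except Cd14, which at 0.21 to 0.29 lost its call with centring, quantile normalization, only the arrays compared, and without any 1 of LPS 1, 2 and 3 or Control 3. Gapdh, Ftl1, Rab7 and Uqcrb, not called, passed in 6 of their fits. Genes that were not called and lay near 0 changed sign: Pla2g4a ranged from -0.04 to 0.12 over left-out replicates and read -0.04 centred and -0.08 after quantile normalization, Ptger4 ranged from -0.21 to 0.15 and read 0.19, Spi1 read 0.01 after quantile normalization, and over left-out replicates Cd36 ranged from -0.11 to 0.06, Gclm from -0.08 to 0.00, Itgb1 from -0.10 to 0.05, Mertk from -0.41 to 0.07 and S100a9 from -0.06 to 0.56.

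Values near the silent level carry the least information: 63 of 1410 olfactory and vomeronasal receptor genes were called higher and 6 lower, with a median difference of 0.14. The data hold 1 time, 1 dose and 1 cell line. Neither scan nor extraction batches were stated.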

Other observations

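Some gene groups outside the 4 themes also changed, and their values are given here without further comparison. Regulators of cell death were higher in 20 of 39 and lower in 10. Casp4, or caspase 11, which binds LPS in the cytosol, rose from 8.52 ± 0.15 to 14.87 ± 0.04, and Traf1, an adaptor of TNF receptors, from 8.99 ± 0.36 to 14.41 ± 0.03. Bcl2a1b and Bcl2a1d, close copies of 1 anti-apoptotic gene whose probes may share signal, rose from 9.67 ± 0.15 to 14.51 ± 0.13 and from 9.51 ± 0.20 to 14.31 ± 0.12. Bcl2 itself fell from 9.97 ± 0.25 to 6.75 ± 0.35, and Casp9, the initiator caspase of the mitochondrial route, from 8.48 ± 0.35 to 6.02 ± 0.57. Gsdme, a pore-forming gasdermin, fell by at least 2.81 to under the silent level.

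Of 133 matrix proteases and inhibitors, 92 were under the silent level in both groups, 21 were higher and 9 lower. Timp1, an inhibitor of metalloproteases, rose by at least 9.01 and the membrane-bound Mmp14 by at least 6.54, both from under the silent level. Plau, or urokinase, read 12.26, 11.57 and 11.97 in control cells and 7.70, 7.23 and 7.98 with LPS, opposite in direction to its inhibitor Serpinb2. Adam10, a sheddase, fell from 14.67 ± 0.06 to 12.33 ± 0.02. TRIM proteins were more often higher, in 16 of 60 (26.7%), than lower, in 11 (18.3%). Trim30a rose from 9.44 ± 0.12 to 15.55 ± 0.02, and Trim65 fell by at least 3.66 to under the silent level. Ubiquitin enzymes were higher in 19 of 86 (22.1%) and lower in 23 (26.7%). Tnfaip3, or A20, which restrains NF-κB, rose from 7.67 ± 0.04 to 16.51 ± 0.07, and Usp18, which removes ISG15, from 9.27 ± 0.14 to 16.83 ± 0.03.

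Cytosolic aminoacyl-tRNA synthetases were higher in 9 of 17 and lower in 2. Cars, which charges the cysteine tRNA, rose from 10.93 ± 0.20 to 12.98 ± 0.08, while Qars, for glutamine, fell from 14.16 ± 0.14 to 13.60 ± 0.11. In cyclic nucleotide signalling 7 of 66 genes were higher (10.6%) and 16 lower (24.2%). The phosphodiesterases of cyclic AMP parted, with Pde4b rising from 9.12 ± 0.18 to 15.65 ± 0.06 and Pde4a falling from 9.03 ± 0.11 to 5.96 ± 0.45.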
